A study of Mus musculus with 48 samples.

Results

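The potassium channel genes of the mouse hypothalamus were followed across 48 RNA-seq libraries. The members were all rows of the expression table whose symbol begins with Kcn, then further letters and a digit, with Kcna3 left out: 92 of 21558 genes. They were grouped by symbol into 39 genes for voltage-gated pore subunits (Kv), 15 for inward rectifiers (Kir), 14 for two-pore leak channels (K2P, whose name counts the pore domains in a subunit), 5 for calcium-activated channels, 3 for the sodium- or pH-gated relatives Slo2 and Slo3, and 16 for auxiliary subunits. Each library held hypothalamus tissue pooled from 3 male C57BL/6 mice, and values were deposited as RPKM (mapped reads scaled to transcript length and library depth). There were 8 series of 6 libraries, and the libraries of a series carried the numbers 1, 5, 9, 13, 17 and 21 in their titles, for which the labels give no unit.

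In the early period, 4 series came from mice of 2 months kept at a sound level of 10 dBA and normal air pressure: a pair of free-moving series (a and b, with the same labels) and a pair of series under hind limb unloading (a and b). In the late period, 4 series came from mice labelled as 3 months old: free-moving or unloaded, each either at 10 dBA and normal pressure (called quiet here) or at 85 dBA and 0.9 atmospheres (called noise here, although sound and pressure changed together and cannot be told apart). The series' design text gives 2 months for all mice, so the age of the late series is not settled by the labels. Nothing in the labels tells whether the early and late series were dissected and sequenced together, so period and preparation cannot be told apart. The p-values below measure the spread between these pools only.

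Potassium channels let potassium leave the cell and so oppose depolarization. Kv channels open on depolarization, repolarize the action potential and set how fast a neuron can fire; Kir and K2P channels hold the resting potential; calcium-activated channels follow calcium entry with an afterhyperpolarization. Pore subunits assemble with auxiliary subunits that change their gating and transport to the membrane. In the hypothalamus these channels are known to shape the firing of neuroendocrine and clock neurons, and ATP-sensitive Kir channels to couple glucose to firing.

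Promoters were looked up because groups of members moved together between series. RefSeq promoters (GRCm38.p6, 250 bases before to 50 after the start) were matched by symbol for 67 of the 92 members, which have 92 promoter windows. The windows of Kcnj10, Kcnn3 and Kcna4, which were lower after unloading in the late quiet series, and of Kcnip2, which was higher with noise in free-moving mice, are shown 5′ to 3′ on the gene's strand, with capitals for matches on either strand to any of 5 motifs. The E-box was searched for as CACGTG. The cAMP response element was searched for as TGACGTCA and the GC box as GGGCGG. The remaining motifs were the CCAAT box, searched for by the letters of its name, and the TATA box, searched for as TATAAA. They lie at chr1:172340960-172341259 (plus strand), chr3:89519914-89520213 (plus strand), chr2:107290339-107290638 (plus strand) and chr19:45816014-45816313 (minus strand).
Kcnj10: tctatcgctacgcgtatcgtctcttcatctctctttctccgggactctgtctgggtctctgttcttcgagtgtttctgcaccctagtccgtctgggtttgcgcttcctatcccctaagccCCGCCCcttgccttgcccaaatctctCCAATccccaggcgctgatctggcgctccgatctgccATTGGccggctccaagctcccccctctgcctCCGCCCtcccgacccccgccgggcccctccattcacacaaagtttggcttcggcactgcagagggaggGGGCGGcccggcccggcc
Kcnn3: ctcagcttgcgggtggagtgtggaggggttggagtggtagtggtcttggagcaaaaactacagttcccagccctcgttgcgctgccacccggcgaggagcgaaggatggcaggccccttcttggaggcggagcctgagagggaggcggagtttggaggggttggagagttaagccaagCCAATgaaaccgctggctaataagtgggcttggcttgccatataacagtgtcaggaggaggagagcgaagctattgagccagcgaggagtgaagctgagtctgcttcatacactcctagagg
Kcna4: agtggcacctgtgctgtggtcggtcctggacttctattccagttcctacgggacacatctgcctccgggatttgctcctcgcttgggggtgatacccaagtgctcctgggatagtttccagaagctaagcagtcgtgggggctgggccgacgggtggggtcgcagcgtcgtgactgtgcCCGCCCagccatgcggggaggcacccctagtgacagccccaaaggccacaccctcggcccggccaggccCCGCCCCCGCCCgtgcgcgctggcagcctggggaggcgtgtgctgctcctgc
Kcnip2: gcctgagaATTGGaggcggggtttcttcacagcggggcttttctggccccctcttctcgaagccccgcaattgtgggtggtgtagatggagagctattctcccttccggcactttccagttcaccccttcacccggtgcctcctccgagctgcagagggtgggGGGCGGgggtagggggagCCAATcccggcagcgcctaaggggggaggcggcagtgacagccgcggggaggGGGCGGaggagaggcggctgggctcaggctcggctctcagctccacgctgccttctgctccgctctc
The window of Kcnj10 held 3 GC boxes and 2 CCAAT boxes, that of Kcnn3 held 1 CCAAT box, that of Kcna4 held 3 GC boxes, and that of Kcnip2 held 2 GC boxes and 2 CCAAT boxes. Each motif was searched for on its own, so matches of different motifs may share letters. Over all member windows a GC box was found in 47.8% against 35.7% of the 32851 windows in the table, a CCAAT box in 30.4% against 37.4%, a TATA box in 5.4% against 13.6%, an E-box in 7.6% against 7.2%, and a cAMP response element in 0.0% against 1.8%. The member windows had a median GC content of 58.0% against 52.7% for all windows. A match describes the letters only.

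Levels were compared between genes on the RPKM scale, which is per length. Of the 92 members, 74 had a mean of at least 0.5 RPKM over the 48 libraries and were tested: 32 Kv, 12 Kir, 10 K2P, 5 calcium-activated, 3 Slo2 and Slo3 and 12 auxiliary genes. Of these 74, 65 reached that mean in every series and 9 fell below it in at least 1 series. The 18 members under the minimum had means from 0.00194 RPKM (Kcnj1) to 0.399 RPKM (Kcnh8) and included Kcnq1, Kcnj6, Kcne1, Kcne2 and Kcne3.

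The most abundant member was Kcnj10, the inward rectifier of astrocytes and oligodendrocytes that takes up potassium released by neurons, with a mean of 42.7 RPKM over the 48 libraries (16.5 to 88.5). Next came Kcnab2, a beta subunit of Kv channels, with a mean of 31.4 RPKM, and Kcnt1, which encodes a sodium-activated channel, with 28.5 RPKM. Abundant Kv genes included Kcna6 (25.4 RPKM) and Kcnc4 (22.01). Among K2P genes the highest means were those of Kcnk1 (19.98 RPKM), Kcnk2 (11.4) and Kcnk3 (9.34), and among the other Kir genes those of Kcnj9 (15.1), a G-protein-gated subunit, and Kcnj4 (11.4). The calcium-activated genes were lower, with Kcnma1, the large-conductance BK channel, at 4.82 RPKM, Kcnn1 at 2.52 and Kcnn2 at 2.03. Kcnip2 (21.9 RPKM) and Kcnip3 (18.9), calcium-binding partners of the A-type Kv channels, followed Kcnab2 among the auxiliary genes.

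**Figure D1:**
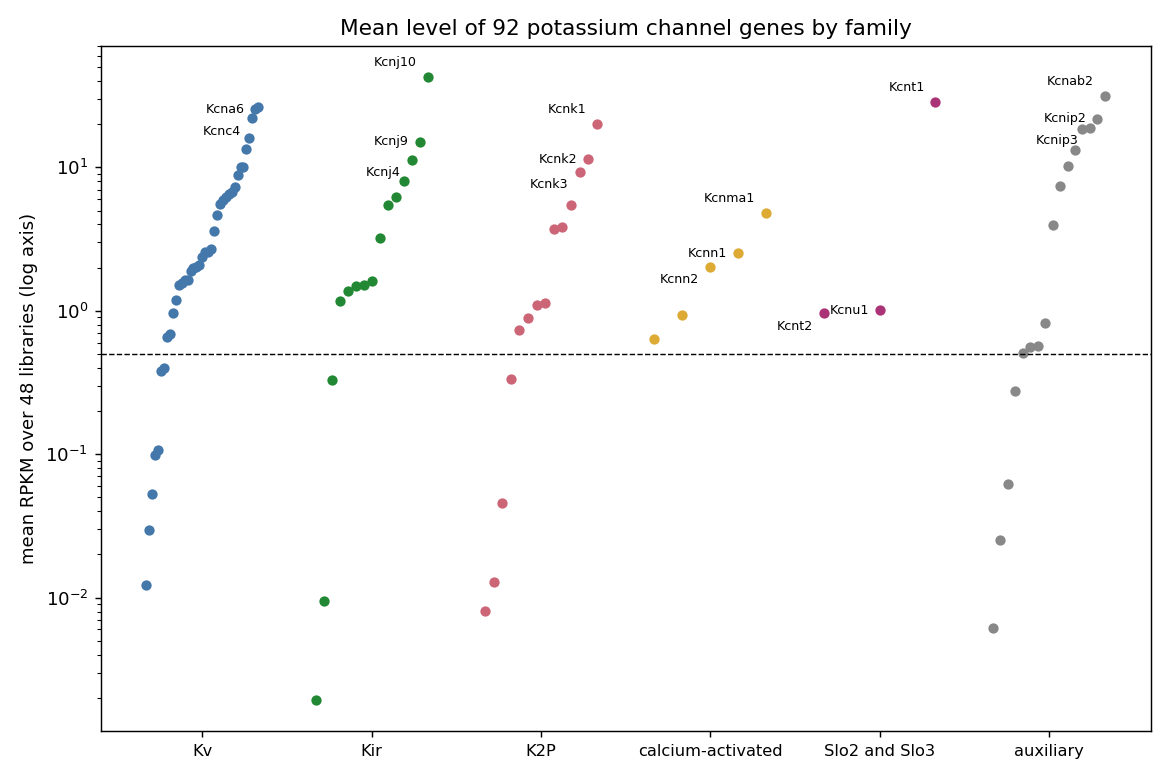
Mean RPKM over 48 libraries (log axis) for the 92 genes, ordered by level within each family, with genes among the 3 highest of each family named; the dashed line is the minimum of 0.5 RPKM for testing. Kcnj10 stands highest at 42.7 RPKM, and the 5 calcium-activated genes all lie below 5 RPKM.

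Summed over all 92 members, the level was highest in the late quiet free-moving series (mean 739.4 RPKM ± 43.4 SD, n = 6). Their unloaded counterparts came next (664.3 ± 23.7), and these 2 ranges overlapped only at their edge, 691.1 against 691.2 RPKM. The other 6 series had means from 394.0 (early free-moving b) to 585.3 RPKM (early unloaded a), and the early unloaded a libraries, which reached 693.6 RPKM, and the late unloaded noise libraries, which reached 668.7 RPKM, overlapped the late quiet ones. The Kv genes followed this order, at 313.3 ± 15.6 RPKM in late quiet free-moving mice against 139.6 ± 13.5 in early free-moving b. The Kir genes (159.9 ± 12.01 against 67.5 ± 6.79), the K2P genes (78.0 ± 2.43 against 44.5 ± 3.29) and the calcium-activated genes (18.04 ± 1.57 against 7.15 ± 0.861) did likewise. Slo2 and Slo3 went the other way: their sum, mostly Kcnt1, was lowest in the late quiet free-moving series at 18.3 ± 2.52 RPKM and lay between 28.4 and 35.8 RPKM in the means of the other 7. The auxiliary sum was highest in the late quiet unloaded series (155.2 ± 7.34 RPKM), within 1 SD of the late quiet free-moving series (151.9 ± 16.2), and lowest in early free-moving b (103.5 ± 11.97). In bulk tissue fewer cells of a type and less RNA per cell cannot be told apart.

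**Figure D2:**
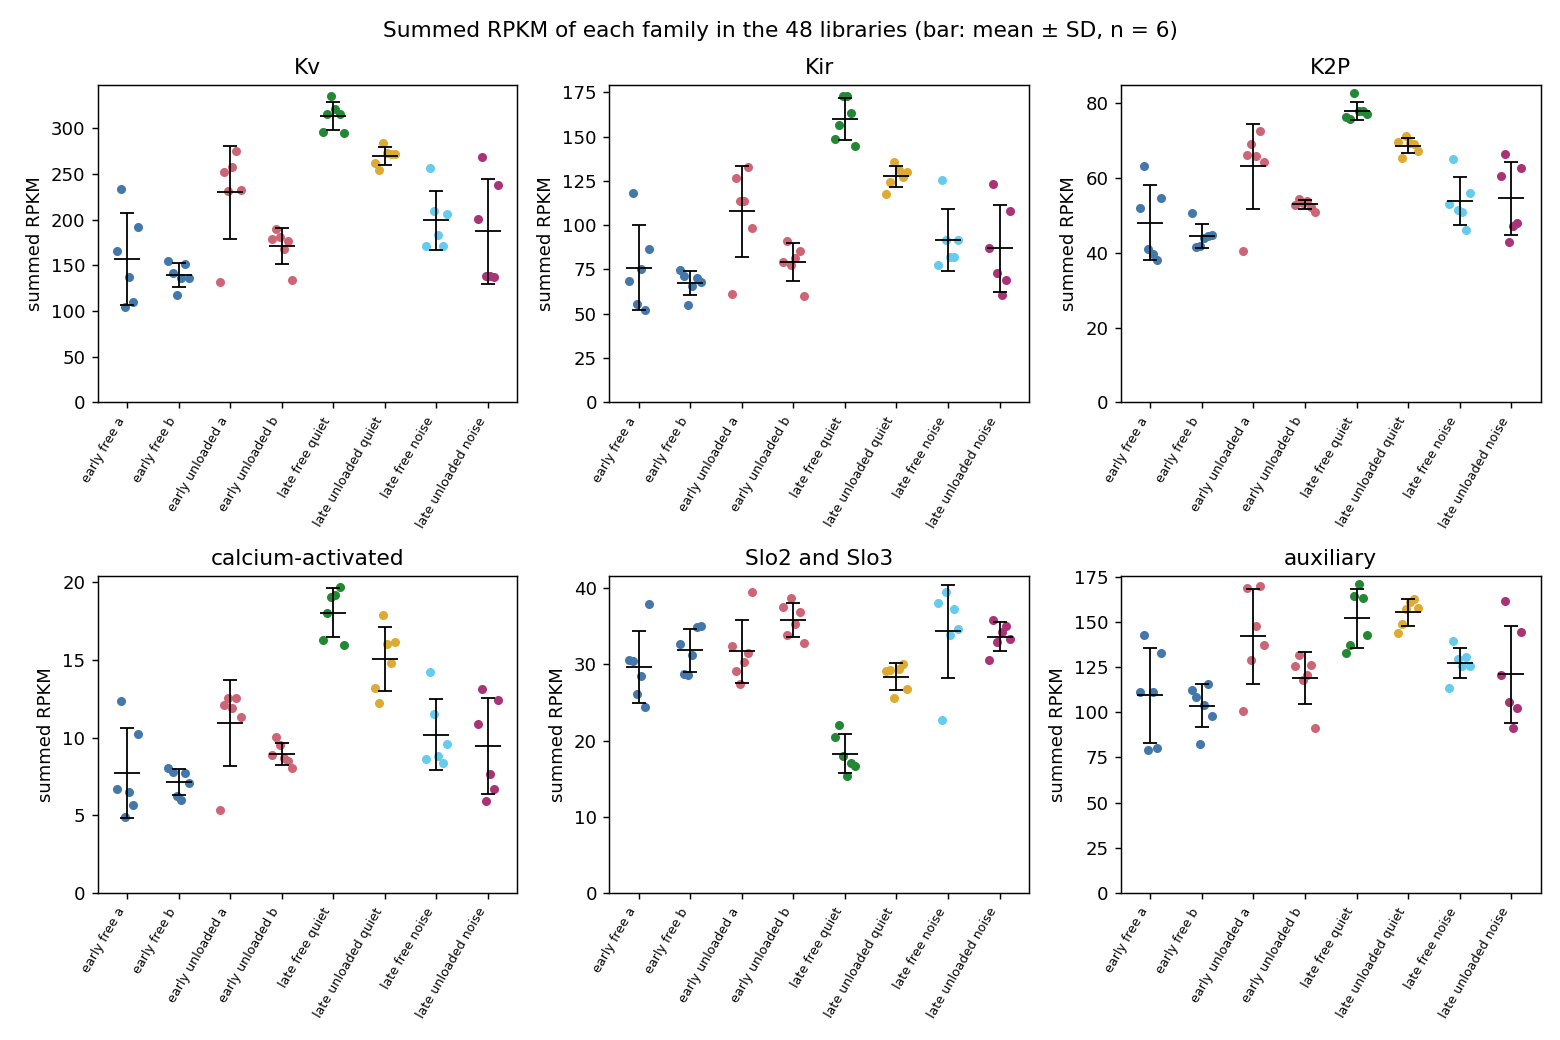
Summed RPKM of each family in the 48 libraries (points), with the mean and SD of each series of 6 (bars); within a series, points run from title number 1 to 21. Kv, Kir, K2P and calcium-activated sums are highest in the late quiet free-moving series, where the Slo2 and Slo3 sum is lowest at 18.3 RPKM.

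The libraries differed in ways that moved with these levels. The share of RPKM held by the mitochondrial protein-coding genes averaged 11.5% and 14.03% in the late quiet series (free-moving and unloaded), but 20.5% to 44.5% in the other 6 series, and it ranged from 10.5% to 50.04% within late unloaded noise. The 6 thalamus markers had a median sum of 85.9 and 81.6 RPKM in the late quiet series against 26.2 to 42.1 RPKM elsewhere, and the 7 hypothalamus markers 1881 and 2632 against 4466 to 6980 RPKM, so the late quiet tissue held hypothalamic neuropeptide RNA at a lower level and thalamic marker RNA at a higher one. The hypothalamus markers summed to at least 1530 RPKM in every library. Steps in the low values put the depth of the libraries at 28.3 M to 55.2 M reads (median 38.0 M). In early unloaded a, anterior pituitary markers summed to 12130 RPKM at number 9 against a series median of 4.78. The part of the mitochondrial share in each result below was tested only as far as the alternative fits named beside it. None of these fits had a tissue marker as a term, so the part of dissection was not tested beyond leaving out libraries.

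Each comparison was a contrast in 1 limma model of log2(RPKM + 0.5), run on the 13685 genes with a mean of at least 0.5 RPKM, with series and title number as terms, and a gene was called at a Benjamini-Hochberg adjusted p under 0.05 over all of them. A log2 difference on this scale understates the change of genes near or under 0.5 RPKM. The late quiet free-moving series enters 4 comparisons (late quiet unloading, noise in free-moving mice, late against early in free-moving mice, the interaction), and the late quiet unloaded series enters 4 (late quiet unloading, noise in unloaded mice, late against early in unloaded mice, the interaction), so these share samples. 3 other fits were run beside each count: after quantile normalization, with each library's mitochondrial share as a covariate, and with each library's trend over exon length and GC content removed.

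The first comparison asked what hind limb unloading did in the late series kept quiet. Kcnt1 rose and Kcna1, Kcnn3, Kcnj10 and Kcna4 fell; these 5 were called with the same sign in the deposited scale and in all 3 other fits. This is 1 of 74 higher and 4 of 74 lower, beside 9.38% of all tested genes called higher and 3.38% lower. In all 4 fits together, 560 of 13535 genes were called higher and 403 lower. The median difference of the 74 was −0.14 against 0.02 for all tested genes.

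Kcnt1 (ENSMUSG00000058740.14, chromosome 2, 25863734 to 25918273 in GRCm38) lay between 13.1 and 19.5 RPKM in the late quiet free-moving libraries (median 15.4) and between 23.3 and 28.1 in the unloaded ones (median 27.0). All unloaded libraries were above all free-moving ones, by 0.70 ± 0.11 (SE) on the log2 scale (adjusted p = 4.1e-05, 6 of 6 title numbers). Its channel opens when sodium enters the cell.

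Kcna1 (ENSMUSG00000047976.4, chromosome 6, 126640397 to 126646384), a Kv subunit of axons that limits repetitive firing, lay between 3.89 and 5.48 RPKM in free-moving libraries (median 4.95) and between 1.97 and 2.79 in unloaded ones (median 2.34). The groups did not overlap, and the difference was −0.88 ± 0.20 (adjusted p = 0.0031, 6 of 6). Kcna4 (ENSMUSG00000042604.5, chromosome 2, 107290639 to 107298502), a rapidly inactivating Kv subunit, ranged from 3.61 to 5.42 RPKM (median 3.85) in free-moving and from 2.39 to 3.36 (median 2.69) in unloaded libraries. Its fall of 0.52 ± 0.18 stood near the threshold (adjusted p = 0.042): the call ended at a pseudocount of 0.1 (adjusted p = 0.074), without the filter (0.068), and without title number 1, 5, 9, 13 or 17 (0.054 to 0.18).

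Kcnn3 (ENSMUSG00000000794.9, chromosome 3, 89520164 to 89675132), a small-conductance calcium-activated channel of the afterhyperpolarization, lay between 1.95 and 2.75 RPKM (median 2.40) in free-moving and between 0.876 and 1.35 (median 1.13) in unloaded libraries. The fall was 0.83 ± 0.16 (adjusted p = 5.1e-04, 6 of 6), with no overlap. Kcnj10 (ENSMUSG00000044708.5, chromosome 1, 172341210 to 172374085) lay between 71.7 and 88.5 RPKM (median 83.4) in free-moving and between 50.8 and 62.7 (median 54.3) in unloaded libraries, again without overlap. It fell by 0.55 ± 0.16 (adjusted p = 0.015), and the call ended without title number 13 (adjusted p = 0.067) or 17 (0.061). Beside it, 1 of 5 astrocyte markers was called lower, with a list median of −0.40 and a summed level of 212 to 266.6 RPKM in unloaded against 265.6 to 316.4 in free-moving libraries. The part of astrocyte RNA in the fall of Kcnj10 was not tested.

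By family, 2 of 32 Kv genes, 1 of 12 Kir genes, 1 of 5 calcium-activated genes and 0 of 10 K2P genes were called lower, with medians of −0.19, −0.16, −0.17 and −0.11. The abundant Kcnk1 (−0.12 ± 0.11, adjusted p = 0.49) did not pass. The number of calls moved with the fit. With only these 2 series fitted, 8 members were called higher and 26 lower, and the other 3 fits called 14 (quantile), 12 (covariate) and 13 (length and GC trend), 2, 4 and 1 of them higher. Without number 13 or 17, 3 members were called.

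**Figure D3:**
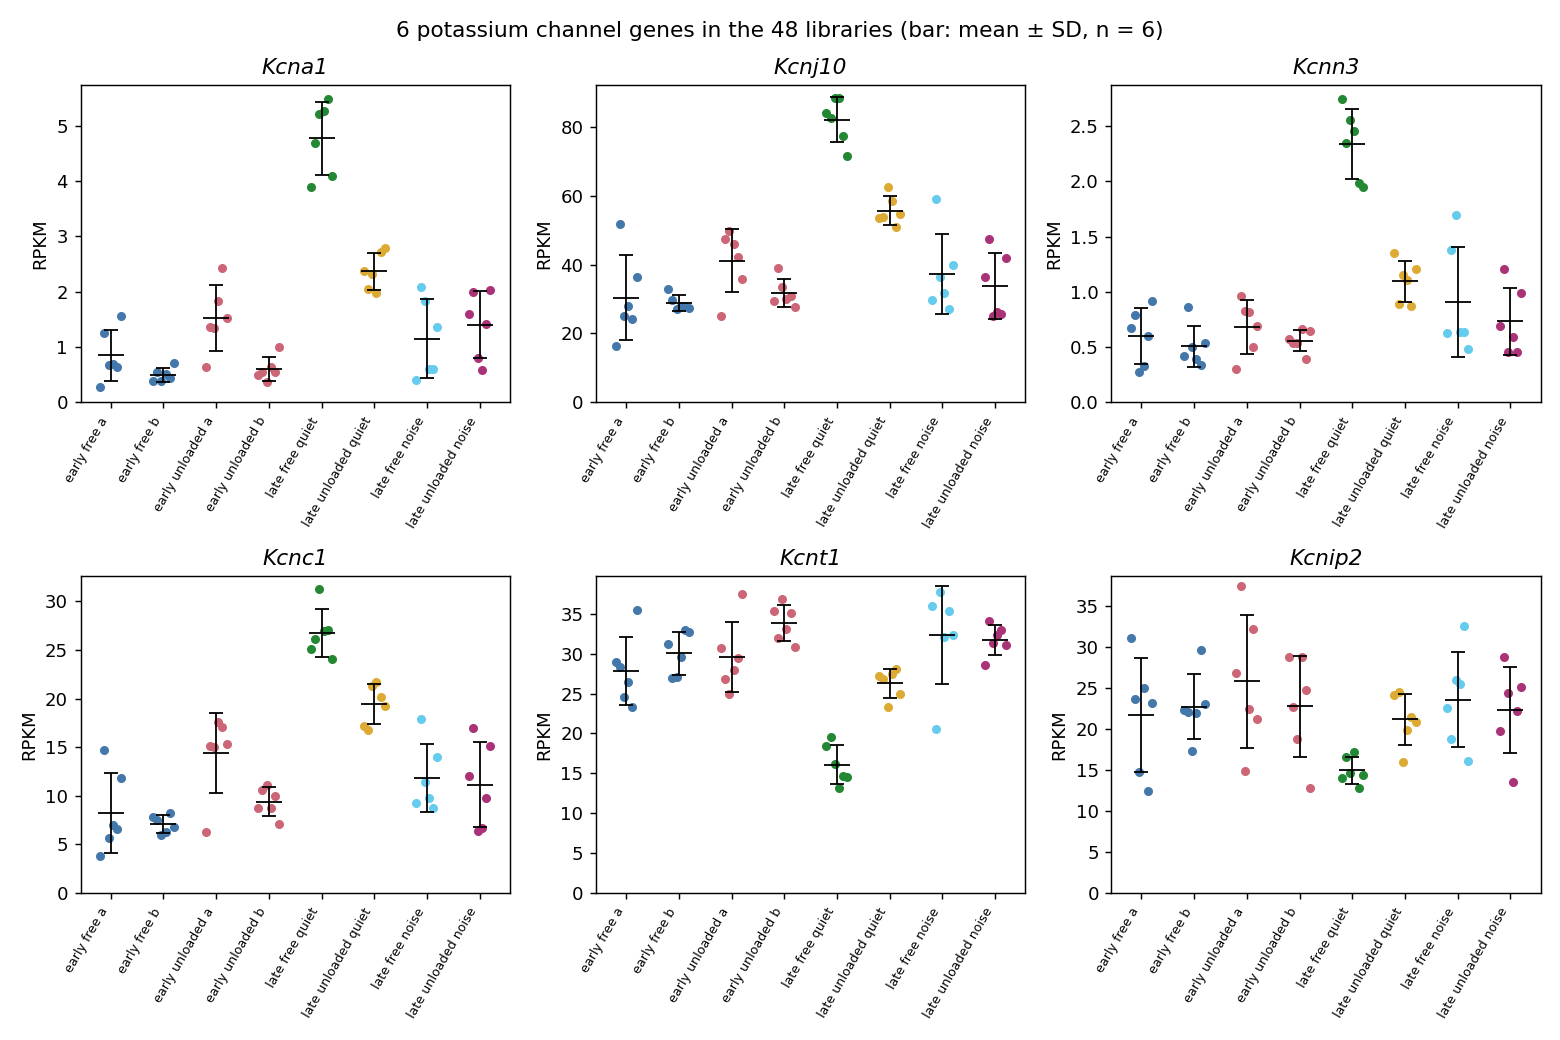
RPKM of 6 genes in the 48 libraries (points, title number 1 to 21 from left to right within a series) with the mean and SD of each series of 6 (bars). In the late quiet series Kcna1, Kcnj10 and Kcnn3 are lower and Kcnt1 is higher in unloaded than in free-moving libraries, with no overlap.

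Under noise and low pressure, unloading gave no member call. Of all tested genes 0.0146% were called higher and 0% lower. An unadjusted p under 0.05 was found for 5 of the 74 members, beside 855 of the 13685 tested genes. Quantile normalization, the covariate fit and the trend fit also called 0 members. The smallest p-values were those of Kcnj3, a G-protein-gated Kir subunit (−0.31 ± 0.14), Kcnn4, an intermediate-conductance calcium-activated channel (−0.35 ± 0.16), and Kcnj14 (−0.37 ± 0.18), all with an adjusted p of 0.77. The median of the 74 and that of all genes were both −0.11. Kcnt1 lay between 28.6 and 34.1 RPKM in the unloaded noise libraries (median 31.8) and between 20.5 and 37.7 (median 33.8) in the free-moving noise ones. These ranges overlapped, with a difference of 0.00 ± 0.11 (adjusted p = 0.99). Kcna1 lay between 0.582 and 2.04 RPKM (median 1.51) and between 0.411 and 2.09 (median 0.983), also overlapping (0.26 ± 0.20, adjusted p = 0.79).

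Whether unloading acted differently under noise was tested as an interaction, which called 1 member higher and 1 lower, beside 0.482% and 3.90% of all tested genes. The split was 4 higher and 1 lower after quantile normalization and in the trend fit, and 2 higher and 3 lower with the covariate. The effect of unloading on Kcnt1 was lower under noise than in quiet by 0.71 ± 0.16 (adjusted p = 0.0063), and that on Kcna1 was higher by 1.13 ± 0.28 (adjusted p = 0.016). Both held in the quantile, covariate and trend fits, and with the 4 late series fitted alone. In the deposited scale and the quantile, covariate and trend fits together, 66 of 13535 genes were called higher and 192 lower. Neither was called without title number 13 (adjusted p = 0.10 for Kcnt1 and 0.083 for Kcna1) or 17 (0.078 and 0.11), and Kcna1 was not called without number 1 (0.059). Kcnn3 did not pass (0.67 ± 0.22, adjusted p = 0.070), although it did after quantile normalization (0.036), with the covariate (0.02), without number 9 (0.035) and without the free-moving noise library of number 5 (0.035). The last of these left out raised the count from 2 to 4 members.

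Noise was compared with quiet in free-moving mice. Of 74, 6 were called higher and 44 lower, where 21.2% of all tested genes were called higher and 36.4% lower, and the median was −0.53 against −0.15. The falls were spread over families: 21 of 32 Kv genes, 8 of 12 Kir genes, 6 of 10 K2P genes, 4 of 5 calcium-activated genes 4 of 12 auxiliary genes and 1 of 3 Slo2 and Slo3 genes, with medians of −0.64, −0.55, −0.36, −0.95, −0.29 and 0.27. Quantile normalization left 9 higher and 41 lower, the trend fit 9 and 40, and the covariate fit 11 and 15, so the split between higher and lower moved with the covariate; the mitochondrial share averaged 28.3% in the noise and 11.5% in the quiet libraries. With the covariate the medians of K2P and auxiliary genes were −0.01 and 0.02. In all 4 fits together, 6 of the 74 members were called higher and 13 lower, beside 2135 and 1345 of 13535 genes. All 4 neuron markers fell as well (list median −0.61), and 5 of 6 thalamus markers fell (−0.99). Of 7 hypothalamus markers 5 rose and 1 fell (1.05). The part of these markers in the members' changes was not tested.

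Kcna1 fell the most, from a median of 4.95 RPKM to 0.983 RPKM, with no overlap (−1.78 ± 0.20, adjusted p = 4.2e-09). Kcng4, a silent Kv subunit that modifies Kv2 channels, lay between 1.97 and 5.99 RPKM in quiet (median 3.73) and between 0.412 and 2.03 (median 0.824) under noise, where 1 library reached the quiet range (−1.59 ± 0.30, adjusted p = 3.0e-05). Kcnk9, an acid-sensitive K2P leak channel, lay between 9.47 and 14.5 RPKM in quiet (median 11.1) and between 2.79 and 8.76 (median 3.73) under noise (−1.31 ± 0.24, adjusted p = 2.1e-05).

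Kcnc2 and Kcnc1 encode the rapidly closing Kv channels of fast-spiking neurons. Kcnc1 lay between 24.1 and 31.3 RPKM in quiet (median 26.5) and between 8.71 and 17.9 (median 10.6) under noise, a fall of 1.18 ± 0.21 (adjusted p = 8.4e-06). Kcnc2 lay between 10.2 and 18.3 RPKM in quiet (median 14.2) and between 4.23 and 9.42 (median 4.60) under noise, a fall of 1.25 ± 0.21 (adjusted p = 4.3e-06). For both genes every quiet library was above every noise library.

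Kcnj10 fell by 1.17 ± 0.16 (adjusted p = 9.5e-08), from a median of 83.4 to 34.1 RPKM (27.0 to 59.1 under noise). Beside it, 4 of 5 astrocyte markers were called lower and 1 higher, although their summed level overlapped between quiet (265.6 to 316.4 RPKM) and noise (256.6 to 273.0). Kcnn3 fell by 1.07 ± 0.16 and Kcnn2 by 0.95 ± 0.16, both small-conductance channels, and Kcnma1 by 0.96 ± 0.22, from a range of 7.09 to 10.2 RPKM to one of 3.04 to 6.33. Among the ATP-sensitive pore subunits Kcnj11 fell (−0.82 ± 0.20, adjusted p = 6.3e-04), whereas Kcnj8, found in vascular cells, had −0.25 ± 0.18 and did not pass (adjusted p = 0.24).

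The 6 members that rose were called higher in all 4 fits. Kcnt1 rose from a median of 15.4 to 33.8 RPKM (20.5 to 37.7 under noise), with no overlap (0.97 ± 0.11, adjusted p = 5.3e-09). Kcnip2 lay between 12.8 and 17.2 RPKM in quiet (median 14.6) and between 16.1 and 32.6 (median 24.1) under noise, with an overlap at the edge (0.61 ± 0.19, adjusted p = 0.0058). Kcnmb4, the neuronal beta subunit of BK channels (0.57 ± 0.12), Kcnn4 (0.54 ± 0.16) and the Kv gene Kcnh4 (0.44, adjusted p = 0.029) rose as well; Kcnmb4 and Kcnn4 had means of only 0.512 and 0.640 RPKM.

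Some abundant members did not pass: Kcna6 (−0.15 ± 0.14, adjusted p = 0.36), Kcnk2 (−0.15 ± 0.12, adjusted p = 0.30) and Kcnip1 (−0.27, adjusted p = 0.10). Of 25 tested genes that partner potassium channels or move potassium, 0 were called higher and 17 lower (median −0.56). They included the sodium-potassium pump subunit Atp1b1 (−1.04 ± 0.22), the potassium-chloride cotransporter Slc12a5 (−0.86 ± 0.18) and Dpp6 and Dpp10 (−0.66 ± 0.15 and −0.63 ± 0.13), which accompany the A-type channels. Dlg4 (0.01 ± 0.11, adjusted p = 0.96), a postsynaptic scaffold that binds Kv channels, did not pass.

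**Figure D4:**
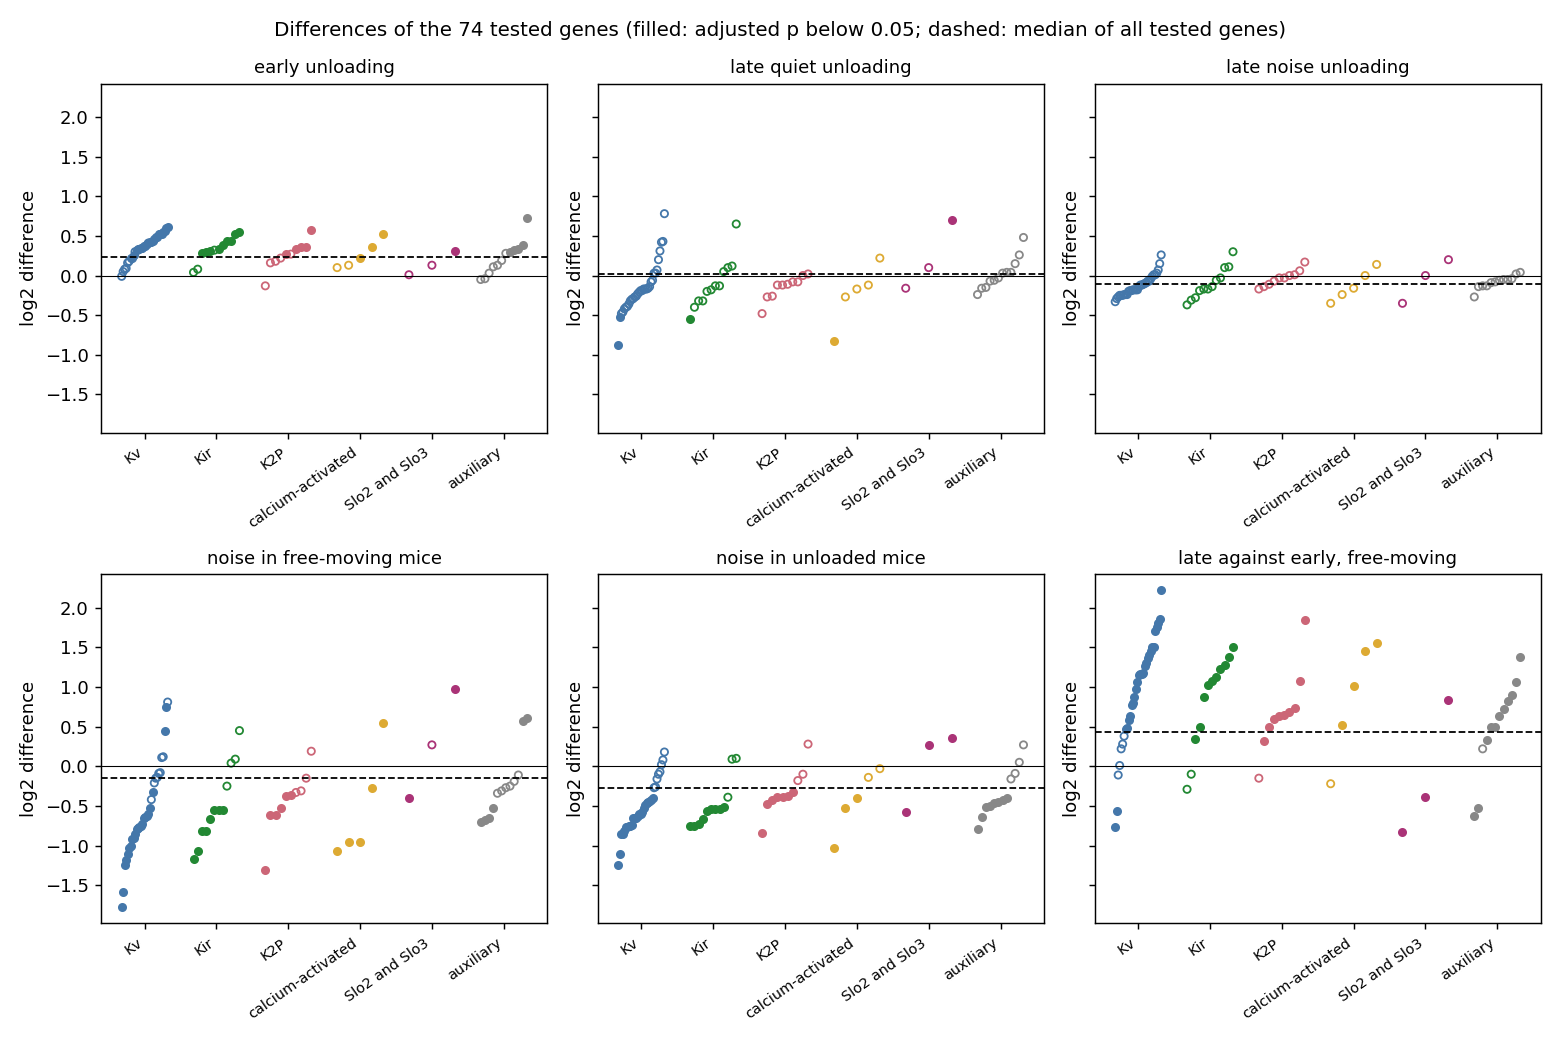
Log2 differences of the 74 tested genes in 6 comparisons, by family and ordered by size; filled points have an adjusted p under 0.05, and the dashed line is the median of all tested genes. Most Kv, Kir, K2P and calcium-activated genes are lower with noise and higher in the late than in the early free-moving series, and Kcnt1 (highest Slo2 and Slo3 point with noise in free-moving mice) is opposite.

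In unloaded mice, noise gave 2 members higher and 50 lower on the deposited scale, beside 6.75% and 45.6% of all tested genes, with a median of −0.47 against −0.28. Kcng4 (−1.25 ± 0.30), Kcnc2 (−1.10 ± 0.21) and Kcnma1 (−1.03 ± 0.22) fell the most, and Kcnu1 (0.36 ± 0.12) and Kcnt1 (0.27 ± 0.11) rose. Kcnu1 encodes a channel best known from sperm and averaged 1.01 RPKM here. Kcnma1 lay between 5.78 and 10.2 RPKM in quiet (median 8.21) and between 1.93 and 5.72 (median 3.52) under noise, with no overlap. The call of Kcnt1 ended without the filter (adjusted p = 0.053), with the covariate (0.21) and without number 9, 13, 17 or 21 (0.058 to 0.13). The count of calls moved widely: 0 members were called with the mitochondrial share as a covariate, 22 without number 9, 13 without number 13 and 28 without number 17. Quantile normalization gave 5 higher and 30 lower, which moved the split, and the trend fit 4 and 30. The mitochondrial share averaged 33.6% ± 17.3 in these noise libraries against 14.03% ± 1.32 in quiet. All 4 neuron markers, all 6 thalamus markers (list median −0.98) and 18 of the 25 partner genes were called lower too. Of 7 hypothalamus markers 3 were called higher and 1 lower (0.54). Of 5 astrocyte markers 1 was called higher and 3 lower (−0.57). The part of these markers in the members' changes was not tested.

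In the early series, unloading was compared with free movement over both pairs of series (n = 12 each). On the deposited scale 47 members were called higher and 0 lower, beside 50.9% and 1.88% of all tested genes, and the median was 0.32 against 0.23. By family the calls were 24 of 32 Kv, 9 of 12 Kir, 5 of 10 K2P, 3 of 5 calcium-activated, 1 of 3 Slo2 and Slo3 and 5 of 12 auxiliary genes. The count was 0 without number 9, without number 17, with the covariate, and with unloaded b set alone against either free-moving series, and 30 without number 13. It was 14 higher and 2 lower after quantile normalization and 12 and 1 in the trend fit. Of all 13685 tested genes, quantile normalization called 1521 higher and 1263 lower. No member was called in all 4 fits, but 0 of the 13535 genes with length and GC values were either. Beside the members, 3 of 4 neuron markers were called higher (list median 0.49), with sums of 312.3 to 648.1 RPKM in free-moving and 294 to 678.3 in unloaded libraries. Of 5 microglia markers 3 were called higher and 1 lower (0.30), and of the 25 partner genes 19 were higher and 0 lower (0.36). The part of these cell types in the members' differences was not tested.

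Kcnab3, a Kv beta subunit, had the largest difference (0.72 ± 0.16, adjusted p = 0.0043), with 2.25 to 7.87 RPKM in free-moving (median 4.09) and 4.59 to 18.7 in unloaded libraries (median 6.07), which overlapped widely. Next were the silent Kv subunit Kcnf1 (0.61 ± 0.18), Kcnc1 (0.60 ± 0.15), Kcnk9 (0.57 ± 0.17) and Kcnc2 (0.56 ± 0.15). Kcnc1 lay between 3.84 and 14.7 RPKM in free-moving and between 6.25 and 17.6 in unloaded libraries. With the covariate the differences of Kcnf1 and Kcnk9 were 0.00 and −0.03. The mitochondrial share averaged 41.8% and 44.5% in the free-moving series and 20.5% and 34.3% in the unloaded ones. The unloaded a library of number 1, with a share of 48.2%, was low in Kcnc1, Kcnc2 and Kcnma1; without it 52 members were called higher. Kcnt1 (0.13 ± 0.08, adjusted p = 0.15) and Kcnn3 (0.10 ± 0.11, adjusted p = 0.45), called in the late quiet series, did not pass here, and Kcnj10 (0.31 ± 0.11) and Kcna1 (0.37 ± 0.14) were higher on the deposited scale and lower in late quiet unloading. Neither was called in early unloading in the other 3 fits, where Kcnj10 had 0.10, −0.01 and 0.05 and Kcna1 0.18, 0.05 and 0.12 (quantile, covariate, trend).

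The pairs of series with the same labels served as a check of how far equal labels differ. Between the free-moving series 0 members were called, beside 0.0512% of all tested genes higher and 0.205% lower. An unadjusted p under 0.05 was found for 8 members, beside 2099 of the 13685 tested genes. After quantile normalization 3 members were called, with the covariate 2, and without number 9 only 1, Kcna4. Between the unloaded series only Kcna1 was called, lower in b (−0.84 ± 0.20, adjusted p = 0.042), beside 0.431% higher and 0.402% lower. It lay between 0.633 and 2.44 RPKM in a and between 0.364 and 0.997 in b. The call ended in the covariate fit (adjusted p = 0.20), without the filter (0.077) and without the title number in the model (0.087), and without number 5, 9, 13, 17 or 21 (0.069 to 0.25). Without the unloaded a library of number 1, 37 members were called lower in b, and without number 1 in all series 35 were.

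The late quiet free-moving series differed from the early free-moving series in most members. Of 74, 58 were higher and 6 lower, beside 60.5% and 18.0% of all tested genes. A call with a change of more than 2-fold was found for 31 members, beside 2984 of the 13685 tested genes. The median was 0.81 against 0.43 for all genes. By family 25 of 32 Kv genes, 10 of 12 Kir genes, 9 of 10 K2P genes, 4 of 5 calcium-activated genes and 9 of 12 auxiliary genes were higher, with medians of 1.10, 1.05, 0.64, 1.01 and 0.57. Quantile normalization gave 47 higher and 13 lower, which moved the split, as did the trend fit (47 and 13) and the covariate fit (23 and 9). With quantile normalization the family medians were 0.68, 0.57, 0.27, 0.53 and 0.24. In all 4 fits 19 of the 74 members were higher and 4 lower, beside 1737 and 1725 of 13535 genes.

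Kcna1 led again: 0.281 to 1.56 RPKM in the 12 early libraries (median 0.592) against 3.89 to 5.48 in the late quiet ones (2.22 ± 0.17). Kcnc2 (1.86 ± 0.18), Kcnk9 (1.85 ± 0.21), Kcnc1 (1.81 ± 0.18) and Kcng4 (1.76 ± 0.26) followed. Kcnj10 lay between 16.5 and 51.9 RPKM early and between 71.7 and 88.5 late, with no overlap (an increase of 1.5 ± 0.13). Kcnk2, a mechanosensitive K2P channel, was among the smaller rises (0.32 ± 0.11). The members lower in all 4 fits included Kcnt1 (−0.83 ± 0.10, from 23.4 to 35.4 RPKM early to 13.1 to 19.5 late), Kcnmb4 (−0.63 ± 0.11) and Kcnip2 (−0.52 ± 0.16). Kcnh3, a Kv gene of forebrain neurons, was also lower (−0.76 ± 0.32, adjusted p = 0.029), but not called with the covariate (0.12), without the filter (0.062), without number 1 (0.23) or 5 (0.085), or without the early free-moving a library of number 1 (0.070). All 6 thalamus markers and all 4 neuron markers were higher in the late series (list medians 1.14 and 1.12). Of 7 hypothalamus markers 4 were lower and 2 higher (−1.28). The part of tissue composition was not tested.

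Between the unloaded series of both periods 43 members were higher and 3 lower, beside 38.8% and 8.53% of all tested genes, with a median of 0.37 against 0.21. The largest rises were those of Kcng4 (1.05 ± 0.26), Kcna1 (0.98 ± 0.17), Kcnc2 (0.91 ± 0.18), Kcnma1 (0.88 ± 0.19) and Kcnd3 (0.84 ± 0.21). Kcnmb4 (−0.34 ± 0.11), Kcnu1 (−0.31 ± 0.10) and Kcnt1 (−0.26 ± 0.10) were lower. The covariate fit called 8 higher and 3 lower, and quantile normalization 29 and 7. In all 4 fits 7 members were higher (Kcna1, Kcnc2, Kcng4, Kcnj10, Kcnj2, Kcnma1 and Kcnq3), and only Kcnt1 was lower. Of 13535 genes, 584 were higher and 606 lower in the same 4 fits. The call of Kcnt1 ended without number 1, 9 or 21 (adjusted p = 0.065, 0.068 and 0.080). Of the marker lists, 5 of 6 thalamus markers (list median 0.82) and 3 of 4 neuron markers (0.48) were higher, and 4 of 7 hypothalamus markers were lower and 1 higher (−0.89); their part was not tested. Of the 25 partner genes 15 were higher and 0 lower.

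Over the 6 title numbers no member was called, beside 0.877% of all tested genes; 17 of 74 (23.0%) had an unadjusted p under 0.05, against 20.7% of all tested genes. After quantile normalization or removal of the trend 1 member was called. Of the 74, 49 (66.2%) had their highest fitted level at number 5, as did 62.1% of all genes, and the mitochondrial share was lowest there (19.6% ± 11.5, n = 8, against 27.0% to 33.2% at the other numbers). The smallest p-values were those of Kcnj2 (1.40 to 2.11 RPKM in the means over 8 libraries, adjusted p = 0.17), Kcnj10 (38.3 to 51.4 RPKM, adjusted p = 0.18) and Kcnip4 (10.8 to 14.6 RPKM, adjusted p = 0.20). Their highest means fell at number 5, 5 and 21. For Kcnj10 the SD over the 8 series at a number was 14.8 to 22.5 RPKM, as the series differ in level.

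**Figure D5:**
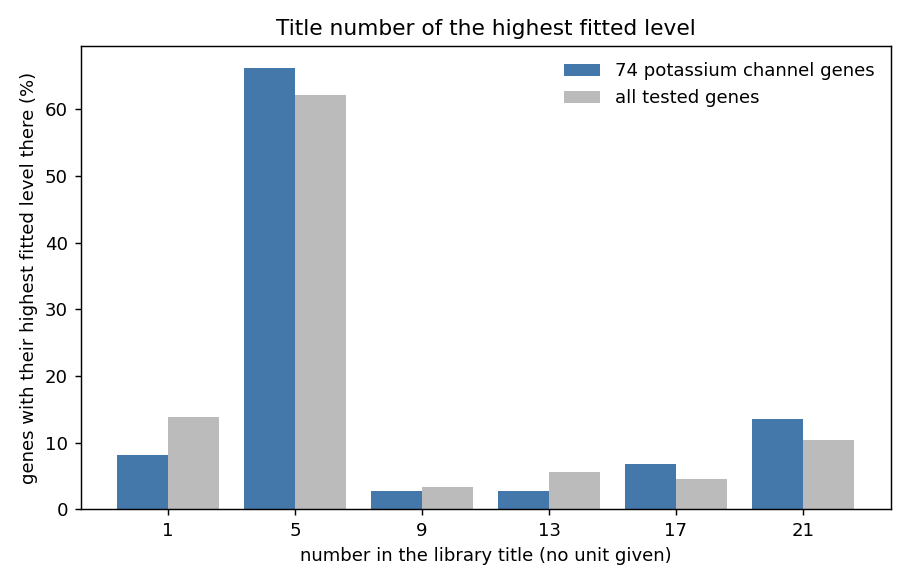
Share of the 74 potassium channel genes (blue) and of all tested genes (grey) whose highest fitted level falls at each title number. Number 5 holds 66.2% of the members and 62.1% of all genes.

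The signed log2 differences also went with transcript structure in some comparisons, as they did for all genes. In early unloading the r with GC content was only 0.05 for the members and 0.01 for all genes. Across the 74 members the difference with noise in free-moving mice had r = −0.35 with log2 exon length and 0.25 with GC content, where all 13535 genes with values had −0.46 and 0.32; for late against early in free-moving mice the values were 0.41 and −0.25, against 0.51 and −0.30. These are correlations across genes of the same libraries, and genes are not replicates. The 44 members lower with noise in free-moving mice had a median exon length of 5425 bases and the 6 higher one of 3989, with a median GC content of 49.9% and 55.0%.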

How the data were processed

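RNA-seq of pooled mouse hypothalamus was used as deposited: the authors gave RPKM values for 21558 genes in 48 libraries, and 0 columns were left out. The submitters' processing notes name CASAVA 1.8 and HISAT. For HISAT's version, the build and the annotation, the entry is: not given in the sources used here. Counts were not given; whole-read steps in low values gave depths of 28.3 M to 55.2 M reads, with 63.3% to 69.2% of low values whole within 0.02 reads (4.0% by chance), too few to recover reads. Values were transformed to log2(RPKM + 0.5) and genes with a mean of at least 0.5 were kept (13685). limma 3.58.1 (R 4.3.3, empirical Bayes with trend, two-sided) fitted series and title number to all 48 libraries, leaving 35 residual degrees of freedom, with 11 results and Benjamini-Hochberg adjustment. The fit was tested on simulated data. Sample groups came from the labels. The title number was a block. The 168 pairs of same-numbered libraries from different series had a median r of 0.080, against −0.017 for other pairs. These values cannot tell whether the numbers pair libraries, and the labels do not say. Lengths and GC content came from GENCODE M21 (GRCm38) by symbol.

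The members, families and lists were chosen with earlier results of these data known. Named genes are the 3 most abundant of each family, up to 5 called members with the largest rise and fall in each comparison (the 3 smallest p where fewer than 3 were called), and a fixed list; Kcnip1 and Kcnh4 fall outside it and were chosen after their values were seen. Some genes that the rule names are not reported here. By the rule for symbols with letters after the number Kcne1l would be no subunit; RefSeq lists Kcne5 as its synonym, so it was counted as auxiliary. Figures were drawn with matplotlib from these results. Alternatives were pseudocount, filter, normalization, a mitochondrial covariate, fewer series, left-out numbers or libraries, and, added after seeing the data, the length and GC trend and 2 left-out libraries.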

Additional observations from a re-analysis of the deposited data

Results flagged for a closer look

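In 112 groups of 6 libraries (14 members in 8 series), 7 had a library far from the other 5; chance gives about 5% of groups. The early unloaded a library of number 1 stood low for Kcnc1 (6.25 RPKM against 15.0 to 17.6 in the others), Kcnc2 (2.58 against 7.06 to 8.34) and Kcnma1 (1.58 against 4.64 to 5.99). Its mitochondrial share was the highest of its series, 48.2%. The free-moving noise library of number 5 stood low for Kcnt1 (20.5 against 32.1 to 37.7) and high for Kcnk1 (20.7 against 15.1 to 16.97) and Kcna4 (2.51 against 1.38 to 1.76), and its mitochondrial share was the lowest of its series, 15.1%. In all 3 genes it lay on the side of the late quiet free-moving libraries. The early unloaded a library of number 17 was high for Kcnab3 (18.7 RPKM against 4.82 to 10.0).

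The effect of unloading differed between noise and quiet for Kcna1 (log2 difference of effects 1.13) and Kcnt1 (−0.71), by a test of the interaction. They were the 1 member called higher and the 1 called lower, beside 0.482% and 3.90% of all tested genes. Neither call held without title number 13 or without 17, and that of Kcna1 also ended without number 1.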

How the results depend on the processing

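Counts of called members that moved by over 1.5 times were as follows. For early unloading (47), quantile normalization gave 16, the covariate 0, the trend fit 13, unloaded b against free-moving a or b 0, and leaving out a number or library 0 to 52 (0 without number 9 or 17). For late quiet unloading (5), quantile normalization gave 14, the covariate 12, the trend fit 13, the 2 series alone 34, and left-out numbers 3 to 7. For noise in free-moving mice (50) the covariate gave 26. For noise in unloaded mice (52) it gave 0, the trend fit 34, and left-out numbers or libraries 13 to 53. For the interaction (2), no filter gave 4, quantile normalization 5, the covariate 5, the trend fit 5, and left-out numbers or libraries 0 to 4. For late against early, the covariate gave 32 in free-moving (64) and 11 in unloaded mice (46). For early free-moving b against a (0), quantile normalization gave 3, the covariate 2 and left-out numbers 0 to 1. For early unloaded b against a (1), no filter gave 0, quantile normalization 7, the covariate 0, the trend fit 6, the 2 series alone 4, and left-out numbers or libraries 0 to 37. For the title number (0), quantile normalization and the trend fit gave 1. Fits without the title number as a replicate block moved only early unloaded b against a, from 1 to 0. Under the covariate Kcnf1 (0.00) and Kcnk9 (−0.03) changed sign in early unloading. The cause of these moves was not tested. Late noise unloading stayed at 0 under every alternative run. Of the named genes' values under the alternatives, 887 kept a call with its direction or stayed uncalled, whatever their sign. With the sign kept, 78 lost and 22 gained a call, and 2 changed sign with a call in the main fit or the alternative. Members with a mean under 0.5 RPKM were left out by the filter. Only the fit without the filter included them, so its counts are over all 92 members.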

Other observations

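Of the members known from the choroid plexus, Kcne2 peaked in single libraries and Kcnj13 did so less clearly. Kcne2, an auxiliary subunit of choroid plexus epithelium that was not tested at a mean of 0.278 RPKM, reached 1.69 RPKM in the late quiet free-moving library of number 17 and 1.20 RPKM in the late quiet unloaded library of number 17, where the series medians were 0.125 and 0.296. The choroid plexus markers summed to 387.2 and 279.3 RPKM in these libraries, against series medians of 13.4 and 16.5. Kcnj13, an inward rectifier of the same epithelium, was highest in the first of these libraries too (2.37 RPKM, series median 0.806), but in the unloaded series its highest value was at number 13 (1.77 RPKM). It also reached 2.09 RPKM in the early free-moving libraries (median 1.07, n = 12). The choroid plexus markers summed to at most 36.7 RPKM there.

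Kcnh3 and Kcnj4, a Kv and a Kir gene of forebrain neurons, were high in single early libraries. In the early free-moving a library of number 1 they reached 17.5 and 22.9 RPKM, against series medians of 4.53 and 8.78, and striatum markers summed to 222.8 RPKM against a median of 57.7. In the early unloaded a library of number 17 they reached 17.5 and 34.8 RPKM, against medians of 7.99 and 12.96, whereas the highest striatum sum of that series, 193.2 RPKM, was at number 5.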
